A study of Mus musculus with 6 samples.

Results

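Cytoplasmic ribosomal protein genes encode the proteins that, together with ribosomal RNA, form the large (Rpl) and small (Rps) subunits of the ribosome. They were taken by name: every row of the deposited table whose symbol is Rpl or Rps with a number, with or without the letters that mark a variant, or is Rplp0, Rplp1, Rplp2 or Rpsa. The rule found 73 genes among 24408 rows, 43 of the large and 30 of the small subunit, and it used no measured value. Among the P-protein genes it found Rplp0, while Rplp1 and Rplp2 are not analysed here. A gene counted as measured when its mean over the 6 libraries reached 10 CPM (tags per 1000000 assigned tags), which 4161 genes and 65 of the 73 members did.

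The mRNAs of these genes are among the most abundant of a growing cell. Many begin with a run of C and T bases at the start of transcription, the 5' terminal oligopyrimidine or TOP element, through which the growth kinase mTORC1 (with its effector Larp1) controls their translation and stability. Ribosome production is known to go up when quiescent fibroblasts enter growth, in part through the transcription factor Myc.

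The donors were untreated Col-GFP mice (C57BL/6), in which a collagen promoter drives green fluorescent protein. Their lung fibroblasts, enriched by removing cells with lineage markers, gave 1 library (Untreated). The same kind of cells was placed in the airways of wild-type hosts treated 7 days earlier with intratracheal bleomycin, which injures the lung, and GFP-positive cells were sorted back on days 2, 4 and 7 after transfer (Day 2, Day 4, Day 7). A further pair of libraries came from transferred fibroblasts of Col-GFP and Acta2-mKO1 double transgenic mice (C57BL/6), sorted by low or high signal of the smooth muscle actin reporter (Acta2 low, Acta2 high); the day of that sort and whether animals were pooled are not stated. With a single library in each of the 6 groups, the differences have no replicate check and no p-value is given; intervals are 95% counting intervals. Untreated cells differed from all others in transfer, host and the way they were purified, and these cannot be told apart.

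The libraries held 4448065 to 6175334 tags each, and 12575 to 13448 genes were detected. The fibroblast markers did not move as a block: the collagen gene Col1a1 stood at 310.2 CPM in Untreated and between 776.5 and 7988 in the transferred libraries, while the proteoglycan gene Dcn stood at 9626 CPM in Untreated and between 1039 and 7723 in the others, and the receptor gene Pdgfra was at 30.0 CPM in Untreated, 38.2 in Day 2, 12.4 in Day 4 and 5.296 in Day 7. The pan-leukocyte gene Ptprc, the macrophage gene Cd68 and the epithelial gene Cdh1 were listed at 0 in all 6, and the endothelial genes Pecam1 and Cdh5 at no more than 1 tag. The summed level of 10 leukocyte and macrophage markers ran from 3.60 CPM in Day 4, with Cd74 at 2.70, to 27.7 in Acta2 low, with Cd74 at 25.7. That of 6 endothelial markers ran from 2.59 to 3.93. The 8 epithelial markers summed to between 12.4 and 44.8 CPM in 5 libraries and to 303.1 in Acta2 low. There the keratin genes Krt8 and Krt18 took 265.2 and 31.8, while Epcam had 1 tag. The epithelial genes Sftpc and Scgb1a1 were instead highest in Untreated and Day 7. Sftpc stood at 20.66 CPM in Untreated and 14.86 in Day 7, and between 2.196 and 5.506 in the others. Scgb1a1 stood at 10.42 CPM in Untreated and 22.04 in Day 7, and between 0.6745 and 3.563 in the others. The part of Sftpc and Scgb1a1 in the results was not tested. In Untreated the top 10 genes by level held 49.4% of all tags, with Gsn (gelsolin, an actin-severing protein) alone at 17.4%, and in the transferred libraries the top 10 held 24.0% to 38.0%. The early-response gene Fos held 5.38% of the tags in Untreated, 1.55% in Day 7 and at most 0.332% elsewhere. Zyg11b and Luc7l2 held 0.375% and 0.155% in Untreated and 0.597% and 0.503% in Day 7, against 3.64% and 3.45% in Day 2, 5.02% and 4.71% in Day 4, 5.09% and 4.61% in Acta2 low and 3.61% and 3.17% in Acta2 high. Untreated and Day 7, the libraries with the lowest shares of ribosomal protein tags, thus stood apart from the others in Fos, Zyg11b and Luc7l2. In Gsn they did not, with 0.117% in Day 7 and 0.0612% to 0.226% in the other transferred libraries. Spp1 held 0.000749% in Untreated, 0.0357% in Day 2, 1.30% in Day 4 and 7.28% in Day 7. It held 5.17% in Acta2 low and 1.97% in Acta2 high. The part of these genes in the results was not tested. CPM values are shares, so the same value can come from more cells with the transcript or from more of it per cell, and these cannot be told apart.

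In 3' SAGE a gene is counted through a short tag near the 3' end of its mRNA. Ribosomal protein genes have many processed pseudogenes, and a tag that also lies in a pseudogene cannot be given to 1 gene with certainty. Candidate tags were read from the GENCODE mouse transcripts (release built on GRCm38) as the last CATG that leaves 21 bases; the CATG site belongs to the enzyme most SAGE protocols use, and its use here is an assumption. Of the 65 measured members, 26 had a tag found in no other gene's transcripts and 39 shared it with at least 1 other gene. The tags below belong to the paralog pairs and to the members with the largest differences; the capitals mark the CATG.
Rps27: CATGcacaaacggtagtcttg
Rps27l: CATGcacagactgtggttctt
Rps4x: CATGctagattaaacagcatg
Rps4y2: CATGttgaattaaaaaagaaa
Rpl7: CATGagatctatacagtcggg
Rpl7l1: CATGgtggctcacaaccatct
Rpl38: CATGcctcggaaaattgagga
Rps6: CATGgcagagtgcgcctgctg
The tags of Rps27 and its paralog Rps27l match at 15 of 21 bases, those of Rps4x and Rps4y2 at 13, and those of Rpl7 and Rpl7l1 at 7, so the tags of each pair differ. The tag of Rpl38 was its own. The tag of Rps6 lay in transcripts of 10 other genes, that of Rps27 in 4, and that of Rpl7l1 in 349. Among other members described below, the tag of Rps2 lay in 32 other genes, that of Rps3a in 7, Rps28 in 6 and Rpl37a in 2. The counts of all 39 members with a shared tag are uncertain to the extent that the authors' counting divided such tags, and the counting intervals do not cover this.

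Every measured ribosomal protein gene stood lowest in the Untreated library. All 65 were higher in each of the 5 transferred libraries than in Untreated, as were 53.4% of all measured genes. Together the 73 members took 2.22% of the Untreated tags (exact binomial interval 2.20 to 2.23). Their share was 15.1% in Day 2 (15.07 to 15.13), 11.5% in Day 4 and 7.46% in Day 7, and it was 9.82% in Acta2 low and 9.83% in Acta2 high. The median measured member was at 195.8 CPM in Untreated, 1186, 752.0 and 491.2 on days 2, 4 and 7, and 582.6 (low) and 557.3 (high) in the Acta2 sorts. Day 2 thus stood highest, Untreated lowest, and both Acta2 libraries between Day 4 and Day 7.

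**Figure D1:**
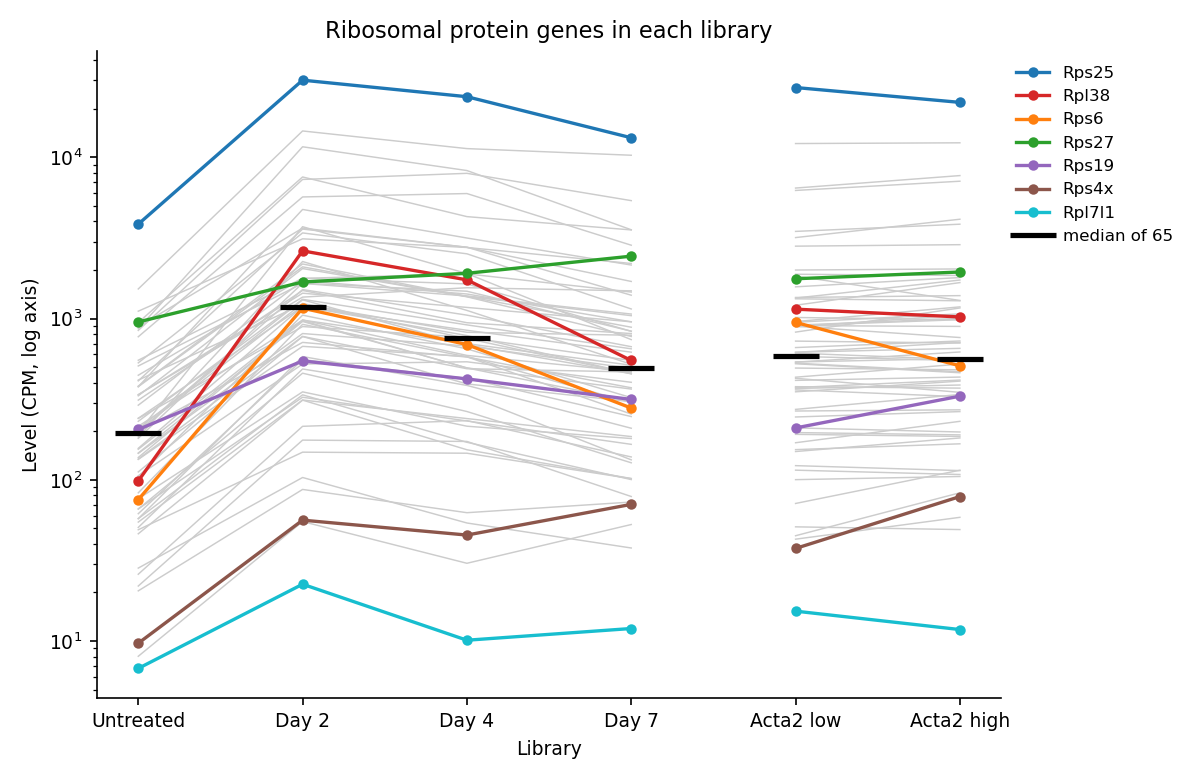
Level in CPM (log axis) of the 65 measured ribosomal protein genes in each of the 6 libraries, 1 line per gene, with 7 genes in colour and the median of the 65 as a black bar. The median goes from 195.8 CPM in Untreated to 1186 in Day 2 and 491.2 in Day 7; Rps27 is highest in Day 7, and Rps4x is highest in Acta2 high.

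A single gene, Rps25, a small subunit protein, took 17.4% of the members' tags in Untreated and 27.6% in Acta2 low, the range over the 6 libraries. Rps25 stood at 3848 CPM in Untreated, 30075, 23747 and 13213 on days 2, 4 and 7, and 27073 (low) and 21902 (high) in the Acta2 sorts. Without it the members' share was 1.83% in Untreated, 12.1%, 9.17% and 6.14% on days 2, 4 and 7, and 7.11% (low) and 7.63% (high) in the Acta2 sorts, so the order of the time points held. Rps25, Rpl37a, Rps2 and Rpl41 together took 32.0% of the members' tags in Untreated and 42.1% to 52.9% in the other libraries.

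Of the 8 members that were not measured, Rpl10l and Rpl39l, paralogs of Rpl10 and Rpl39, had no tag in any library. Rpl3l, the paralog of Rpl3 known from muscle, had 1 tag in Day 2 alone. Rpl22, Rpl6, Rps15a and Rpl17, all core ribosome proteins, had means under 1 CPM. With so few tags these members are not described further. Whether their low counts reflect low transcript levels or how tags were assigned to genes was not tested. Rpl27a, just under the threshold with a mean of 6.71 CPM, stood at 6.95 in Untreated, 4.53, 6.29 and 9.40 on days 2, 4 and 7, and 6.29 (low) and 6.79 (high) in the Acta2 sorts. Its counting intervals in Untreated (4.92 to 9.53) and Day 2 (3.01 to 6.55) overlap. Rpl7l1 lay just above the threshold, at 13.1 CPM. In Untreated 3 measured members were under 10 CPM, Rps4x and Rpl7l1 among them, and the other 62 were at 10 CPM or more in every library.

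On Day 2 the ribosomal protein genes stood about 6-fold above Untreated. The median difference of log2(CPM + 1) was 2.61 over the 65 members, 6.09-fold, with a range from 0.82 (Rps27) to 4.73 (Rpl38). The median of all 4161 measured genes was 0.71 higher as well, which leaves 1.90, or 3.74-fold, between the members and the median gene. At least 4-fold higher were 53 of the 65 members, against 14.1% of all measured genes; none was 4-fold lower (3.82% of all measured genes). The 4-fold count depends on how shares are scaled. With the median gene set to 0, 26 members passed, and the share of all measured genes under that rule is not given. When CPM was computed without the 100 most abundant other genes, 22 of 66 members passed. More genes were then measured: 374 of 6450 were 4-fold higher and 534 lower, against 587 and 159 of 4161 in CPM. The part of those abundant genes in the members' difference was not tested. Of the 8 fibroblast markers 7 were measured, and 5 of these stood above 0 on Day 2, with a median of 0.39. Their summed level was 10309 CPM in Untreated, 3779 in Day 2, 5956 in Day 4 and 19458 in Day 7, and most of the sum in Untreated and Day 2 was Dcn; the part of these shifts in the members' difference was not tested. The medians of the large subunit (2.61, 36 genes) and of the small subunit (2.56, 29 genes) were near each other.

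Rpl38, a large subunit protein that in mouse controls the translation of Hox mRNAs, had the largest difference. It stood at 98.3 CPM in Untreated, 2628, 1737 and 549.4 on days 2, 4 and 7, and 1143 (low) and 1023 (high) in the Acta2 sorts. Day 2 was 26.7-fold above Untreated in CPM (24.5 to 29.2), and the difference was larger than that of any other measured member on Day 2 and on Day 4.

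Rps6, the small subunit protein that S6 kinase phosphorylates downstream of mTORC1, was 15.4-fold above Untreated on Day 2 (13.9 to 17.04). Its levels were 75.3 CPM in Untreated, 1159, 689.7 and 278.5 on days 2, 4 and 7, and 946.0 (low) and 509.0 (high) in the Acta2 sorts. Rps2 was 13.4-fold higher on Day 2 (13.1 to 13.8), at 11616 CPM against 864.2. Rpsa, the small subunit protein also known as a laminin receptor precursor, stood at 83.0 CPM in Untreated, 920.4, 578.9 and 255.6 on days 2, 4 and 7, and 368.3 (low) and 387.0 (high) in the Acta2 sorts. Rplp0, the protein at the base of the ribosome stalk and a common reference gene in quantitative PCR, stood above Untreated by a ratio of 8.73 on Day 2 (8.36 to 9.12), of 6.74 on Day 4 (6.44 to 7.05) and of 3.40 on Day 7 (3.24 to 3.56). In each of these genes Untreated was the lowest library and Day 2 the highest.

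The smallest Day 2 difference belonged to Rps27, a zinc finger protein of the small subunit. It stood at 952.3 CPM in Untreated, 1684, 1908 and 2437 on days 2, 4 and 7, and 1764 (low) and 1943 (high) in the Acta2 sorts. Its Day 2 ratio was 1.77 (1.71 to 1.83) and its Day 7 ratio 2.56 (2.48 to 2.64), and it was the only measured member that was highest in Day 7. Its paralog Rps27l, which is known as a p53 target, was also higher in Day 2, at 970.1 CPM against 137.5 in Untreated. After Day 2 Rps27l went the other way, to 493.5 in Day 4 and 308.0 in Day 7. It stood at 426.1 in Acta2 low and 348.4 in Acta2 high. Rps27 thus stood 6.93 times as high in tags as Rps27l in Untreated, 1.74 times in Day 2 and 7.91 times in Day 7.

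Rps19, the small subunit gene mutated in Diamond-Blackfan anaemia in humans, was 2.66-fold above Untreated on Day 2 (2.49 to 2.85), Rpl36 2.81-fold (2.73 to 2.89) and Rpl9 2.95-fold (2.82 to 3.10). With Rps27 they were the members at 50 CPM or more with the smallest differences. Relative to the median gene, which was 0.71 log2 higher on Day 2, Rps27 was 0.12 log2 higher. Its direction turned when CPM was computed without the 100 most abundant other genes, at -0.03.

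**Figure D2:**
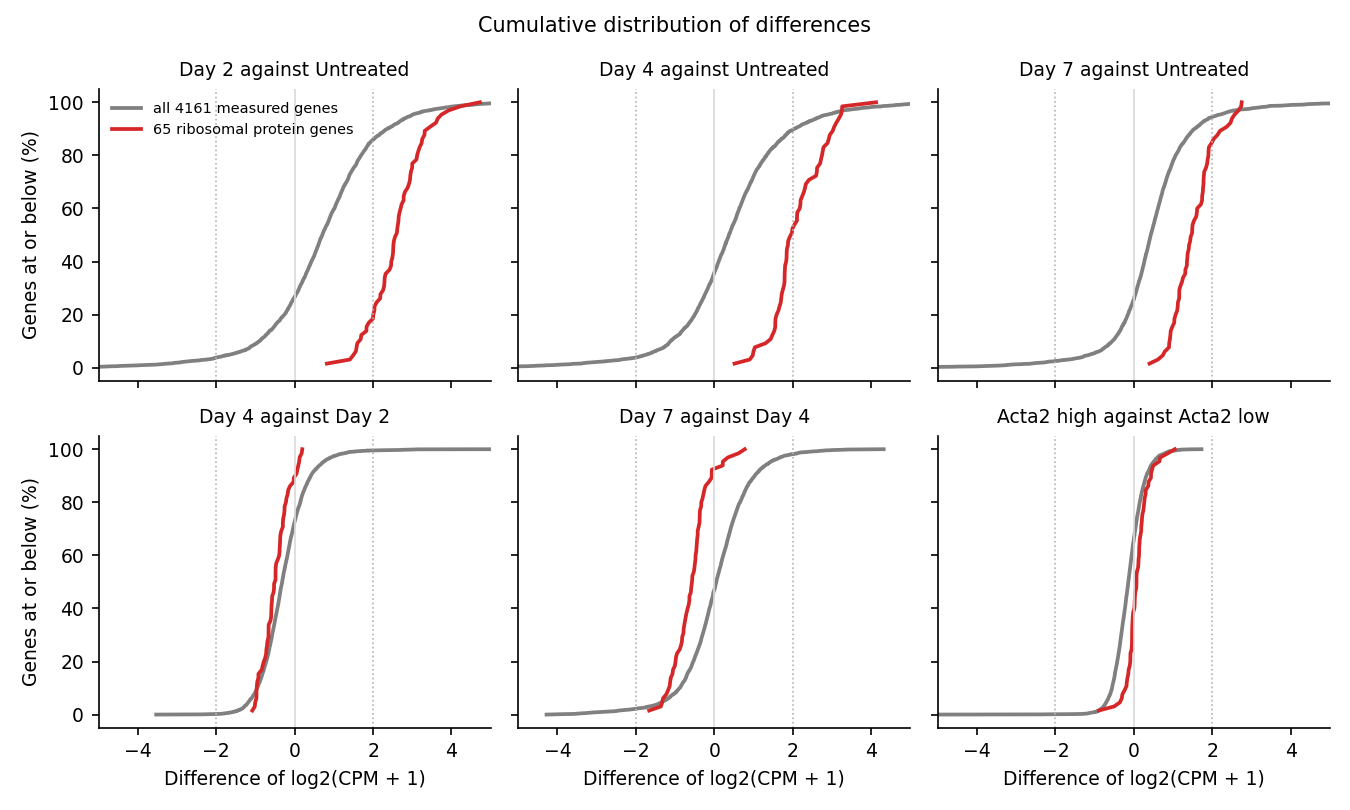
Cumulative share of genes (y axis, percent) at or below each difference of log2(CPM + 1) (x axis) for 6 comparisons, for all 4161 measured genes (grey) and the 65 ribosomal protein genes (red); dotted lines mark 4-fold either way. In the upper panels, which share the Untreated library, the red curve lies to the right of the grey one, with medians of 2.61, 1.98 and 1.49; for Day 7 against Day 4 it lies to the left, with a median of -0.56.

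The day 4 and day 7 libraries are compared with the same Untreated library, so the values stand side by side and are not independent. On Day 4 the members' median was 1.98 (3.95-fold), and 1.61 above the median gene, with 31 of 65 at least 4-fold higher against 10.4% of all measured genes. On Day 7 it was 1.49 (2.81-fold), and 1.06 above the median gene, with 10 of 65 at least 4-fold higher against 5.5%. With the median gene set to 0, 20 members passed on Day 4 and 6 on Day 7. The share of all measured genes under that rule is not given, so these counts have no background. Without the 100 most abundant other genes 19 of 66 members passed on Day 4, against 402 of 6450 measured genes. No measured member was 4-fold lower on Day 4 or Day 7 (3.77% and 2.5% of all measured genes). At 2-fold, 64 members were higher on Day 2 against 40.3% of all measured genes (0 were lower, against 8.96%), 62 on Day 4 against 28%, and 55 on Day 7 against 22.2%.

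Among the 10 genes at least 4-fold higher on Day 7 were Rpl37a, Rps2, Rpl41, Rpl15, Rps28, Rpl38, Rps3a, Rpl39 and Rps4x, and 9 of the 10 passed on all 3 days. Rpl37a stood at 1525 CPM in Untreated, 14560, 11318 and 10294 on days 2, 4 and 7, and 12165 (low) and 12294 (high) in the Acta2 sorts, so that the transferred libraries lay close together. Its Day 7 ratio was 6.75 (6.60 to 6.91). Rpl41, which encodes the smallest ribosomal protein, and Rpl15 had Day 7 ratios of 6.38 (6.19 to 6.58) and 5.69 (5.43 to 5.96). At the other end, Rpl4 stood at 28.3 CPM in Untreated, 103.3 in Day 2, 54.0 in Day 4 and 37.8 in Day 7, a Day 7 ratio of 1.33 (1.08 to 1.65), and Rps19, Rpl18 and Rpl21 were higher on Day 7 by ratios of 1.54 (1.43 to 1.66), 1.75 (1.52 to 2.01) and 1.87 (1.74 to 2.01).

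From day 2 to day 7 most ribosomal protein genes stood lower at each step. In 54 of 65 members Day 2 was above Day 4 and Day 4 above Day 7, against 36% of all measured genes. Day 2 was the highest of the 6 libraries for 56 members, against 44.4%. From Day 2 to Day 4 the median difference was -0.49, but that of all measured genes was -0.32, so the members lay 0.17 log2 below the median gene. None was 4-fold higher (0.481% of all measured genes) or 4-fold lower (0.216%), none was 2-fold higher (2.62%), and 3 were 2-fold lower (8.58%), Rps13 and Rpl7l1 among them. Under median-ratio scaling 20 of the 65 stood above 0 for this step, against 7 in CPM. The median of all measured genes was -0.006 under that scaling, and the share of all measured genes above 0 is not given.

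From Day 4 to Day 7 the members' median was -0.56 while that of all measured genes was 0.05, so the members lay 0.62 log2 below the median gene. Of the 65 members 60 stood lower, and 5 lay above the median gene. The share of all measured genes that stood lower is not given. At least 2-fold lower were 12 members, against 8.1% of all measured genes, and none was 4-fold lower (2.19%). Rpl38 was lowest, with Day 7 at 0.316 of Day 4 (0.303 to 0.330). Rpl12 stood at 0.397 of Day 4 (0.363 to 0.433) and Rps6 at 0.404 (0.380 to 0.429). Neither library of this step is Untreated or Day 2. Members further above Untreated on Day 2 tended to lie further down here, with exceptions such as Rpl37a, at 3.25 and -0.14. The 16 members with the largest Day 2 differences had a median of -0.99 from Day 4 to Day 7 (from -1.66 to -0.14). The 16 with the smallest had -0.37 (from -0.98 to 0.35), so the ranges overlap. Across the 65 members Pearson's r of the 2 differences was -0.63, and across all 4161 measured genes it was -0.68, so the relation was as strong among genes in general; members share libraries and depth, and genes are no replicates.

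**Figure D3:**
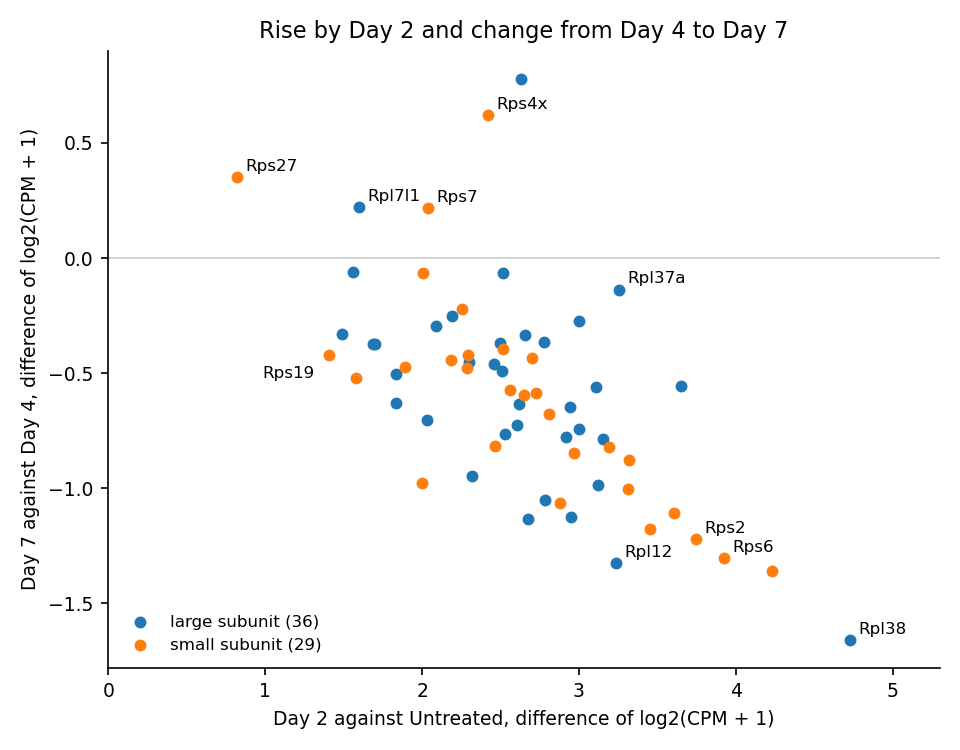
Each point is 1 of the 65 measured ribosomal protein genes, with the Day 2 against Untreated difference of log2(CPM + 1) on the x axis and the Day 7 against Day 4 difference on the y axis; blue marks the large and orange the small subunit. Rpl38 lies at 4.73 and -1.66, Rps27 at 0.82 and 0.35, and 5 genes lie above 0 on the y axis.

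Among the 5 members that stood higher in Day 7 than in Day 4 were Rps27, Rps4x, Rpl7l1 and Rps7, named after their values were seen. Rps4x, the X-linked form of the small subunit protein S4, had 9.69 CPM in Untreated, 56.2, 45.4 and 70.4 on days 2, 4 and 7, and 37.5 (low) and 78.7 (high) in the Acta2 sorts. Day 7 was 1.55-fold above Day 4 (1.31 to 1.84), and Acta2 high was the highest of the 6. For Rpl7l1 and Rps7 the interval of the ratio of Day 7 to Day 4 spanned 1, from 0.801 to 1.76 and from 0.999 to 1.36.

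A further 6 members stood highest in Day 4, though by little: Rpl41, Rps29, Rpl10, Rps28, Rps24 and Rpl39. Rps28 stood at 337.3 CPM in Untreated, 1358, 1552 and 1485 on days 2, 4 and 7, and 1351 (low) and 1387 (high) in the Acta2 sorts, which puts all 5 transferred libraries within a narrow band. Rps29, a small zinc finger protein of the small subunit, stood at 770.8 CPM in Untreated, 5675 in Day 2, 5957 in Day 4 and 2849 in Day 7. The 4 X-linked members, Rpl10, Rpl36a, Rpl39 and Rps4x, stood 3.22-, 5.72-, 8.27- and 5.80-fold above Untreated on Day 2, inside the range of the autosomal members. Rps4y2, whose row is titled as Y-linked but whose transcript matched a gene on chromosome 6 (Rps4l), stood at 49.0 CPM in Untreated, 148.3, 146.1 and 101.6 on days 2, 4 and 7, and 114.7 (low) and 107.8 (high) in the Acta2 sorts.

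Between the Acta2 sorts the ribosomal protein genes differed little. The summed level of the 73 members in Acta2 high was 1.001 times that in Acta2 low (0.997 to 1.005). That sum leans on Rps25, which took 27.6% of the members' tags in Acta2 low and 22.3% in Acta2 high. Without Rps25 the members' share was 7.11% in Acta2 low and 7.63% in Acta2 high. The median difference was 0.07, with all measured genes at -0.14, and 56 of the 65 members lay above the median gene. None of the 65 was 4-fold apart either way (0% of all measured genes higher, 0.12% lower). The balance moves with scaling, since 40 of the 65 stood above 0 in CPM and 54 under median-ratio scaling. The median of all measured genes was -0.14 in CPM and -0.01 under that scaling. The share of all measured genes above 0 is not given. The 8 epithelial markers, led by Krt8, summed to 12.4 CPM in Acta2 high against 303.1 in Acta2 low, and the 10 leukocyte markers to 15.0 against 27.7; their part in these differences was not tested.

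Single members departed from that near equality. Rps4x was 2.10-fold higher in Acta2 high (1.76 to 2.51), the only member 2-fold higher (0.625% of all measured genes), and none was 2-fold lower (0.889%). Rpl32 was 1.61-fold higher (1.41 to 1.84), Rps19 1.57-fold (1.46 to 1.70), Rpl35 1.41-fold (1.36 to 1.47) and Rpl13 1.38-fold (1.34 to 1.43). On the lower side Rps6 stood at 0.538 of Acta2 low (0.513 to 0.565), Rps25 at 0.809 (0.803 to 0.815) and Rps27l at 0.818 (0.767 to 0.871). Rps6 was also among the members with the largest Day 2 differences, and Rps19 among those with the smallest.

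The start regions of RefSeq genes (GRCm38.p6), from 250 bases before to 50 after the annotated start, were matched by symbol for 46 of the 65 measured members. CTTTC, a short pyrimidine stretch of the kind found in TOP elements, lay within 25 bases of the start on the transcribed strand in 12 of the 46 (26.1%), against 7.87% of 27025 genes. On the opposite strand it lay there in 5 (10.9%), against 7.07%. CGGAAG, a core of the sites that ETS factors such as GABP bind, lay on either strand of the whole window in 31 of the 46 (67.4%), against 18.8% of all genes. TATAAA lay on the transcribed strand in 5 (10.9%, against 9.77%) and on the opposite strand in 1 (2.17%, against 7.95%). The pyrimidine and ETS core matches overlapped in 0 of the members' 52 windows. The 27025 genes are all those with a start region, measured here or not, unlike the 4161 measured genes that serve as background elsewhere. The members' motif shares were not set against measured genes alone. RefSeq starts can be off by some bases, and a match is a description of the letters only. The regions from 45 bases before to 20 after the start are shown for members with large (Rpl38, Rps6, Rpl15), middle (Rps10) and small or later differences (Rps27, Rps7); capitals mark the CTTTC motif and the ETS core, the latter as CGGAAG or in reverse complement as CTTCCG.
Rpl38 (chr11:114668535-114668599, + strand): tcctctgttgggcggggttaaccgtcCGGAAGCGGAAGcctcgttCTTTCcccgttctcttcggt
Rps6 (chr4:86857348-86857412, - strand): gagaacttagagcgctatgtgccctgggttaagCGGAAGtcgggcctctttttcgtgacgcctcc
Rpl15 (chr14:18270967-18271031, - strand): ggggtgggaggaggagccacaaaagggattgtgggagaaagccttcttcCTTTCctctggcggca
Rps10 (chr17:27635225-27635289, - strand): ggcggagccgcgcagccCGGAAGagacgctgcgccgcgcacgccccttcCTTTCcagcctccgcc
Rps27 (chr3:90213629-90213693, - strand): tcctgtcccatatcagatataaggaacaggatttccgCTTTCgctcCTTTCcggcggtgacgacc
Rps7 (chr12:28635934-28635998, - strand): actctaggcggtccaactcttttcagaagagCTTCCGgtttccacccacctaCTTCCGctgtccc
Rpl38 and Rps10 hold both motifs in these stretches. CTTTC is present in Rps27, with the smallest Day 2 difference, as in Rpl38, with the largest.

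Ribosomal protein mRNAs are short, and the differences from Untreated on Day 2, Day 4 and Day 7 varied with transcript length in other genes too. Among 124 measured genes that are no members and have a reference transcript under 700 bases, the median Day 2 difference was 1.11, against 0.62 for 1611 genes of 2000 to 4000 bases; the pair was 0.71 and 0.27 on Day 4, and 0.81 and 0.32 on Day 7. The 25 members under 700 bases had a median of 2.73, which is 1.62 above the other genes of that length. From 700 to 1000 bases the 22 members lay 1.71 above 245 others, and from 1000 to 2000 bases the 16 members lay 1.91 above 1256 others. On Day 4 the same 3 gaps were 1.40, 1.45 and 1.55, and on Day 7 0.78, 0.85 and 1.01. In each of these 3 classes of reference length the members' median lay above that of the others on all 3 days. The lengths are those of a single reference transcript per gene. For some members that transcript is long, with 1280 bases for Rps25 and 3706 for Rps20. Whether it is the form counted here is not known, and the part of length in the differences was not tested. The members with a tag of their own had Day 2 and Day 4 medians of 2.56 and 1.93 (26 genes), and those with a shared tag 2.65 and 1.99 (39 genes).

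Other lists of translation genes, chosen by name, are read against the background of all measured genes given above, with 14.1%, 10.4% and 5.5% at least 4-fold higher on the 3 days and medians of 0.71, 0.37 and 0.43. Of 20 measured TOP mRNAs that encode no ribosomal protein, 11 were at least 4-fold higher on Day 2, 6 on Day 4 and 0 on Day 7, with medians of 2.09, 1.44 and 1.03, which lay 1.38, 1.07 and 0.60 above the median gene. Eef1a1, the elongation factor that delivers aminoacyl-tRNA, stood at 1945 CPM in Untreated, 8814, 6778 and 6074 on days 2, 4 and 7, and 5142 (low) and 4862 (high) in the Acta2 sorts. Tpt1, the translationally controlled tumour protein, stood at 613.4 CPM in Untreated and 1562 in Day 2, Eef1g at 75.5 and 603.9, and Naca, which binds nascent chains at the ribosome, at 89.8 and 718.5. The exception was Eif4a2, at 60.9 CPM in Untreated and 27.4 in Day 2, the only measured gene of the list that was lower on Day 2; it is named after its values were seen.

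The ribosome genes that the name rule leaves out gave 3 measured rows. Fau, which encodes a ribosomal protein fused to a ubiquitin-like sequence, had a Day 2 difference of 1.28, and Rpl36al had 2.72; 1 of these 3 was at least 4-fold higher on Day 2, 1 on Day 4 and 0 on Day 7. Of 52 measured mitochondrial ribosomal protein genes, whose products form the separate ribosome of mitochondria, 4 were at least 4-fold higher on Day 2, 0 on Day 4 and 0 on Day 7, with medians of 1.18, 0.60 and 0.59. The 4 of 52 are a smaller share than the 14.1% of all measured genes on Day 2, and the medians lay 0.48, 0.22 and 0.15 above that of all measured genes. Mrpl33 stood at 83.5 CPM in Untreated and 416.0 in Day 2, and Mrpl52 at 100.4 and 412.0. The cytoplasmic members' median was thus 1.42 log2 above the mitochondrial one on Day 2, 1.38 on Day 4 and 0.90 on Day 7.

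Of the mTORC1 and Myc list 7 of 19 genes were measured, and none was 4-fold higher on any of the 3 days; at the background of 14.1%, 10.4% and 5.5%, so short a list cannot be told from genes at large by this count. Its medians were 1.27, 0.76 and 0.11. Myc itself stood at 45.3 CPM in Untreated, 157.9, 77.3 and 38.6 on days 2, 4 and 7, and 66.0 (low) and 58.9 (high) in the Acta2 sorts. Day 2 was the highest library for Myc; Untreated and Day 7, with 248 and 226 tags, were the lowest. Eif4ebp1, the translation repressor that mTORC1 inactivates, stood at 149.7 CPM in Untreated, 391.6 in Day 2, 445.1 in Day 4 and 171.5 in Day 7. Rheb, the activator of mTORC1, stood at 129.6 and 314.2 CPM in Untreated and Day 2, and Akt1, a kinase upstream of it, at 37.7 and 131.2. Of 12 genes of RNA polymerase I and its factors, which make ribosomal RNA, 4 were measured, none of them 4-fold higher on any day, too few to read against the same background. Polr1d stood at 51.7 CPM in Untreated and 160.6 in Day 2, Polr1c at 11.3 and 34.8, Ubtf at 26.0 and 39.8, and Znrd1 at 13.0 and 16.8.

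**Figure D4:**
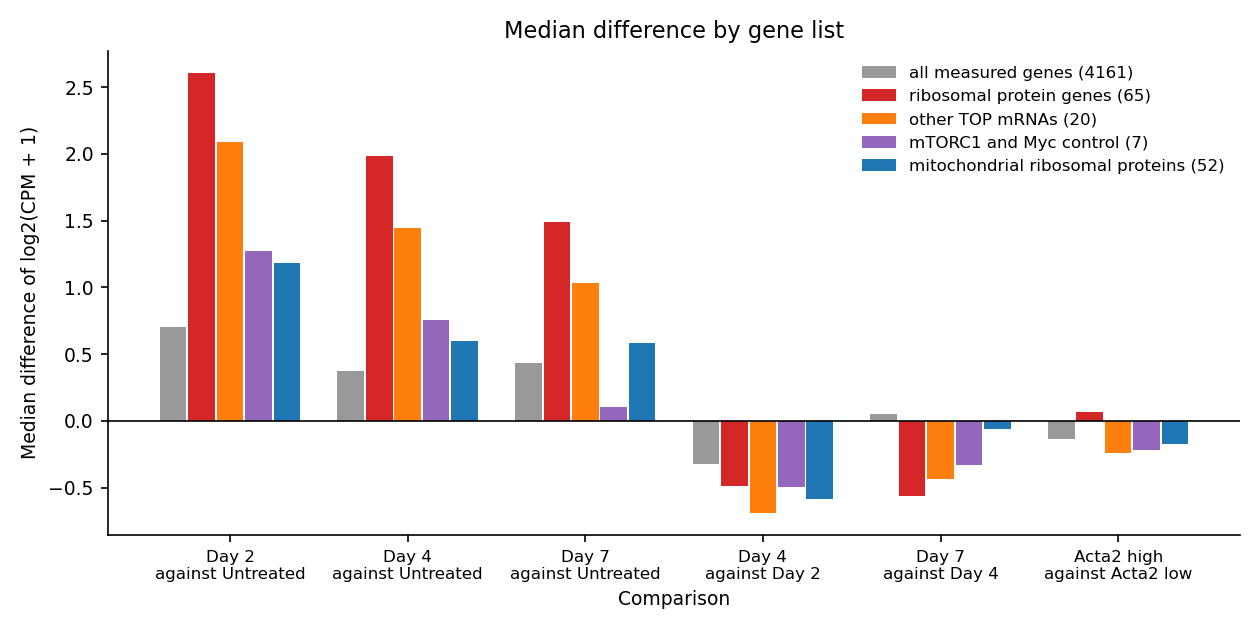
Median difference of log2(CPM + 1) (y axis) for 6 comparisons (x axis), as bars for all measured genes, the ribosomal protein genes and 3 other lists, with the number of measured genes in brackets. The ribosomal protein genes have the highest bar for each day against Untreated (2.61, 1.98 and 1.49) and the lowest for Day 7 against Day 4 (-0.56).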

How the data were processed

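The authors deposited 1 table of CPM values for 24408 gene symbols in 6 libraries, 1 per group, from 3' SAGE of PCR-amplified cDNA (per the labels' protocols). BWA 0.6.2 and mouse build mm9 come from the submitters' processing notes; which enzyme cut the cDNA, how tags were assigned to genes and whether strand counted is not given in the sources used here. Each column sums to 1000000, and 100% of values were whole multiples of the column's smallest value within 0.001 tags, which gave back the tag counts. In Day 4, the shallowest library, a level of 10 CPM carries an exact 95% counting interval from 7.19 to 13.3. No molecular identifiers were used, so intervals cover counting error only.

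Differences are of log2(CPM + 1), which understates the change of low genes, over genes whose mean across all 6 libraries was 10 CPM or more. The call is a difference of 2, or 4-fold. Ratios are of CPM with exact conditional (Clopper-Pearson) intervals. As an alternative, recovered tags were tested library against library by an exact binomial test (two-sided, Benjamini-Hochberg, 0.05), which compares libraries and not conditions; it called 3408, 3016 and 2859 of 4161 genes on Day 2, Day 4 and Day 7 against Untreated, 2493 for Day 4 against Day 2, 2544 for Day 7 against Day 4 and 1406 between the sorts. In 25 rows a symbol turned into a date was restored from the row's title.

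Named members were Rps6, Rplp0, Rpsa, Rps4x, the 4 with the largest and the 4 with the smallest difference at a mean of at least 50 CPM for each day against Untreated and between the sorts, and paralogs with a tag; from each list, up to 4 genes of the highest mean. Some genes that the rule names are not reported here. Genes given for being highest in a library are named after their values were seen. The members and lists were chosen with earlier results of these data known. A reference transcript matched 20259 rows (83.0%). The scripts were tested on simulated data. Work was done in Python 3.11.15 with numpy 2.4.6, pandas 2.3.3, scipy 1.17.1 and matplotlib 3.10.9.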

Additional observations from a re-analysis of the deposited data

How the results depend on the processing

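Each group is 1 library, so no library could be left out. No paired analysis was possible because each group has a single sample. The median difference of the members, less that of all measured genes, kept its sign under every alternative. In the order Day 2, Day 4 and Day 7 against Untreated, Day 4 against Day 2, Day 7 against Day 4 and Acta2 high against Acta2 low, it was 1.90, 1.61, 1.06, -0.17, -0.62 and 0.21 as reported. With a pseudocount of 5 CPM it was 1.94, 1.59, 1.10, -0.21, -0.61 and 0.19. With no filter on low values it was 2.30, 1.88, 1.27, -0.32, -0.52 and 0.069. With the mean taken over the compared libraries the first 5 values were 1.95, 1.68, 1.10, -0.14 and -0.63, and without the 100 most abundant other genes they were 1.97, 1.69, 1.09, -0.16 and -0.65. Median-ratio scaling gave 1.04 for the third of these comparisons, -0.16 for the fourth and -0.62 for the fifth. For the 26 members with a tag of their own the values were 1.85 (Day 2), 1.56 (Day 4), -0.16 and -0.69 for the later steps and 0.21 between the sorts.

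The number of members 4-fold higher was 53 on Day 2, 31 on Day 4 and 10 on Day 7. Without the 100 most abundant other genes 22 of 66 members passed on Day 2 and 19 on Day 4, against 374 and 402 of 6450 measured genes. Among members with their own tag 21, 12 and 4 passed, since fewer were tested. A 2-fold rule and a rule relative to the median gene were added after seeing the data. At 2-fold 62 were higher on Day 4 and 55 on Day 7, 3 were lower from Day 2 to Day 4, 12 from Day 4 to Day 7, and 1 was higher in Acta2 high. Relative to the median gene 26, 20 and 6 passed on the 3 days, with no matching share of all measured genes given. Apart from the constructions named, the cause of these shifts was not tested. Rpl4 between the sorts turned from -0.06 to 0.07 under median-ratio scaling and to 0.06 without the abundant genes, and Rps27 on Day 2 from 0.82 to -0.03 without them. Under median-ratio scaling 373 of 4142 measured genes were 4-fold higher on Day 2 and 232 lower, against 587 and 159 of 4161 in CPM. Depth limits the members near 10 CPM, Rpl7l1 among them.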
